A study of Macaca fascicularis with 2 samples.

Results

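Expression of 7 genes was followed in blood T cells that carry both CD4 and CD8 (double-positive, DP, T cells), namely of the complement receptors *CR1* and *CR2*, and of *APOD*, *EGLN3*, *CTSL*, *EVA1C* and *PALMD*. They are 7 of the 29324 genes counted, and they were picked by symbol after expression in these same cells was known. Their levels by helper T cell markers and by cluster are therefore a description, and no value of this kind supports the choice. The cells came from fresh blood of 1 untreated cynomolgus monkey, *Macaca fascicularis*, aged 10 years. Blood cells were selected first for CD4, with REAlease CD4 beads, and next for CD8. The gene library and the library of CD4 and CD8α antibody tags come from the same droplets of 1 animal, so there is no replicate and no test across animals. All intervals are 95% intervals that cover counting error only.

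The complement system is a cascade of blood proteins that labels particles with fragments of C3 and C4. CR1, also called CD35, binds the larger fragments and limits further activation, and CR2, also called CD21, binds the smaller C3 fragments and is part of a coreceptor complex with CD81 on B cells. Both are known above all from B cells and follicular dendritic cells, and CR1 also from erythrocytes and phagocytes. CCR4, CCR6 and CXCR5 are chemokine receptors that guide helper memory T cells to skin, to mucosa and to B cell follicles, and FOXP3 is the defining transcription factor of regulatory T cells.

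With the limits that the study states (200 to 4000 genes and at most 20% mitochondrial UMIs), 8830 of 8953 barcodes were kept, with a median of 3145 gene UMIs (unique molecular identifiers, each 1 captured RNA molecule) and a range of 502 to 25084. *CD3E*, the T cell receptor subunit that defines T cells, had a UMI in 8503 of them. T cells were taken as the 7417 cells with *CD3E* and without the B cell gene *CD79A*, and B cells as the 115 cells with at least 2 *CD79A* UMIs and no *CD3E*. A further 1086 cells held both genes and were left out of both groups, and 212 cells fell in neither. Median tag counts were 420 CD4 and 301 CD8 UMIs in T cells, against 138 and 200 in B cells, which lack both proteins. T cells with at least 1 UMI of *CCR4* (135 cells), *CCR6* (231), *CXCR5* (195) or *FOXP3* (329) are called status-positive. There were 796 of them, with a median of 4139 UMIs, and 6621 status-negative T cells with a median of 3054 UMIs, so the first group had more UMIs per cell. The study gives fewer cells in all after the same limits than were kept here, and which cells make up the difference was not determined.

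*CR1* was found in 413 of 7417 T cells (575 UMIs, at most 6 in a cell) and *CR2* in 369 (497 UMIs, at most 7). *CR1* stood at 67.5 CPM (counts per 1000000 gene UMIs of the group; interval 59.4 to 76.5) in status-positive T cells and at 14.7 CPM (13.1 to 16.4) in status-negative T cells, a log2 ratio of 2.20 (1.96 to 2.44). *CR2* stood at 57.7 CPM (50.2 to 66.1) and 12.8 CPM (11.4 to 14.4), a log2 ratio of 2.17 (1.91 to 2.43). Both receptors were thus higher in the status-positive cells, and neither pair of intervals overlapped. A fold of at least 2 was reached by 4 of the 6 genes that had the 50 UMIs needed (*CR1*, *CR2*, *EGLN3* and *CTSL*), against 261 of 9739 genes tested (2.68%), and since the genes were chosen on these cells nothing is read from that difference.

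By single marker, *CR1* was at 89.9 CPM in *CCR4*+ cells (interval 69.2 to 115), 83.6 in *CCR6*+ cells (68.3 to 101), 76.6 in *CXCR5*+ cells (59.4 to 97.1) and 36.8 in *FOXP3*+ cells (27.3 to 48.7). *CR2* was at 63.2 CPM (46.1 to 84.6), 77.1 (62.4 to 94.3), 74.3 (57.5 to 94.5) and 21.8 (14.6 to 31.3) in the same order. The intervals of the 3 chemokine receptor groups overlapped for either gene, and the *FOXP3*+ cells lay below them. After every cell was thinned to 2200 UMIs, *CR1* had a UMI in 12.6%, 13.97% and 12.7% of *CCR4*+, *CCR6*+ and *CXCR5*+ cells and in 6.29% of *FOXP3*+ cells. Read the other way, 22.0% of thinned *CR1*+ cells (16.5 to 28.3%) and 6.89% of thinned *CR1*-negative cells (6.29 to 7.53%) held 1 of the 4 markers. In cells with a UMI of *CR1*, 74.3% had exactly 1, so a cell without a UMI is not shown to lack the RNA.

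**Figure D1:**
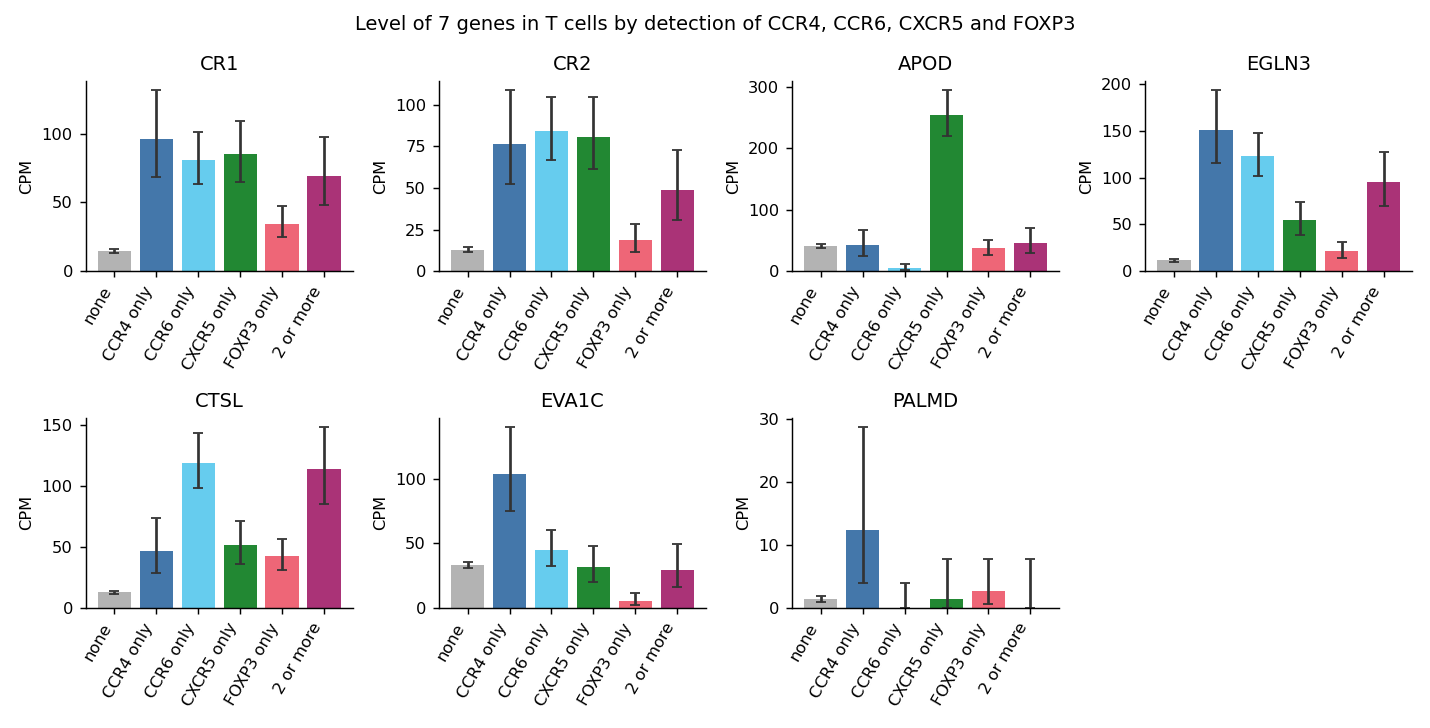
CPM of each gene (y axis, linear, with its own scale per panel) in T cells with none of the 4 markers, with only *CCR4*, *CCR6*, *CXCR5* or *FOXP3*, and with 2 or more of them. Bars are summed UMIs of 1 library and whiskers the exact Poisson 95% interval; *CR1* and *CR2* are high in each group with 1 chemokine receptor and lower with *FOXP3* alone, while *APOD* peaks at 255 CPM with *CXCR5* alone.

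The B cells of the same droplets served as a reference for the complement receptors. *CR1* was at 61.7 CPM in B cells (37 UMIs in 23 of 115 cells; interval 43.5 to 85.1) and 22.2 CPM in T cells (20.4 to 24.1), a log2 ratio of 1.48 (0.96 to 1.96). *CR2* was at 56.7 CPM in B cells (34 UMIs in 25 cells; 39.3 to 79.3) and 19.2 CPM in T cells (17.5 to 20.9), a log2 ratio of 1.56 (1.02 to 2.07). T cells as a whole were below B cells for both receptors, whereas the status-positive T cells had intervals that overlapped those of B cells. At least 2-fold higher levels in B cells were found for these 2 of 6 genes, against 12.0% of all genes tested. Of the 115 B cells, 17 held a UMI of *CD3D*, *CD3G* or *TRAC*, and these carried 17 of the 37 *CR1* UMIs and 8 of the 34 *CR2* UMIs. Without them the *CR1* log2 ratio was 0.94 (0.21 to 1.58).

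B cell lineage genes were next counted in the T cells, which had been chosen without *CD79A*, so their low counts there follow in part from that choice. The 1086 cells with *CD3E* and *CD79A* that were left out held 405 *MS4A1* and 70 *CR1* UMIs. *MS4A1*, which encodes CD20, had 1112 UMIs in the B cells and 2 in all T cells, and *BANK1*, a B cell scaffold protein, had 195 and 1. *PAX5* and *VPREB3*, with 55 and 38 UMIs in B cells, had 0 in T cells. For each *MS4A1* UMI there were 0.0333 *CR1* and 0.0306 *CR2* UMIs in B cells, against 288 and 249 in T cells. The T cell ratios rest on the 2 *MS4A1* UMIs left after the choice of cells without *CD79A*, so nothing is read from their size. None of the 413 *CR1*+ and 369 *CR2*+ T cells had a UMI of *MS4A1*, but only 2 T cells had one, so little can be read from the 0. *CR1* was found in 18 and *CR2* in 14 of the 107 T cells with *CD79B*, and in 27 and 21 of the 138 with *IGKC*. These shares, taken without thinning, were above the 5.57% for *CR1* and 4.98% for *CR2* over all T cells. The 1 T cell with *BANK1* held *CR1*. The source of this overlap was not tested. Summed over the 8 B cell markers measured of 10 listed, *CR1*+ T cells had 127 CPM, *CR2*+ T cells 150 CPM and T cells with none of the 7 genes 147 CPM. *EGLN3*+ and *CTSL*+ T cells had 213 CPM (193 to 235) and 244 CPM (223 to 267). Nearly all of the sum in T cells was *CD74*, *IGKC* and *CD79B*. The CR2 partner *CD81* was present in T cells as well and was at 33.5 CPM in T cells and 43.4 CPM in B cells.

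**Figure D2:**
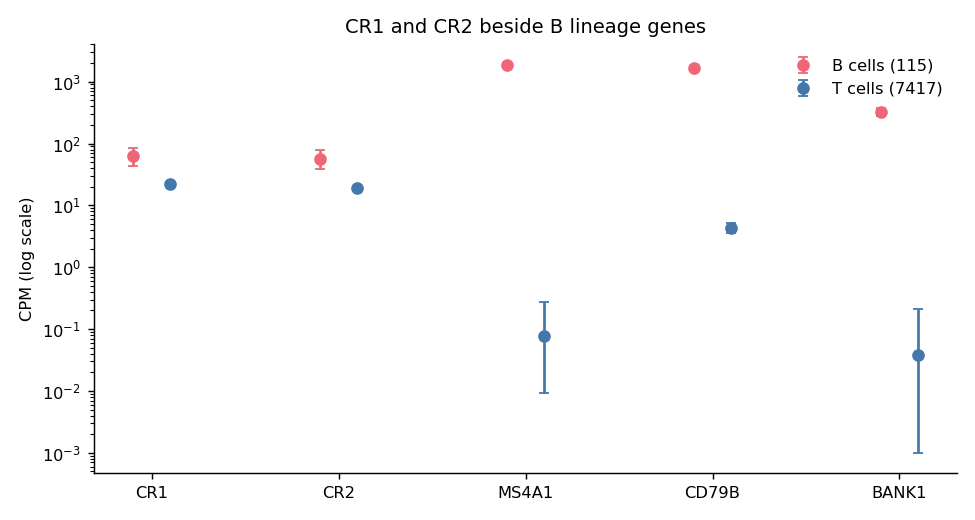
CPM (y axis, log scale) of *CR1* and *CR2* and of 3 B cell lineage genes in the 115 B cells and the 7417 T cells, with exact Poisson 95% intervals. The gap between B and T cells is a log2 ratio of 1.48 for *CR1* and 1.56 for *CR2*, and from 8.58 to 14.55 for *CD79B*, *BANK1* and *MS4A1*. T cells were chosen without *CD79A*, so the low levels of the B cell lineage genes there follow in part from that choice.

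In the order of the RefSeq gene table (assembly T2T-MFA8v1.1, used for names and neighbours only), *CR2*, *CR1*, *CR1L* and *CD46* follow each other on chromosome 1. *CD55*, next to *CR2* in this order, was not among the symbols counted. *CD46* did not share the pattern of the receptors, and *CR1L* had too few UMIs to compare. *CR1L*, a near relative of *CR1*, had 0 UMIs in T cells and 1 in B cells, and reads that match both genes could have been lost or assigned to either in the counting. *CD46*, a complement regulator of nearly all cells, was at 93.7 CPM in status-positive and 89.4 CPM in status-negative T cells. Of 15 listed complement receptors and regulators, 11 were among the symbols and 8 had enough UMIs. Apart from *CR1* and *CR2*, none was at least 2-fold higher in status-positive cells (2.68% of all genes). *ITGAM*, the α chain of CR3, was lower at 3.27 against 8.04 CPM (log2 ratio -1.30, -2.28 to -0.46), as were 2.98% of all genes at 2-fold. The median log2 ratio of the list was 0.04, against -0.02 for all genes tested. Among complement components, *CFP* (properdin), which stabilises the C3 convertase, was at 119 and 89.9 CPM, and *C3* had 0 UMIs in T cells.

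*EGLN3* and *CTSL* followed the same markers as the complement receptors. *EGLN3* encodes a prolyl hydroxylase that marks hypoxia-inducible factors for degradation when oxygen is present, and *CTSL* encodes the lysosomal cysteine protease cathepsin L. *EGLN3* was at 77.6 CPM in status-positive T cells (68.9 to 87.2) and 11.4 CPM in status-negative T cells (10.1 to 12.9), a log2 ratio of 2.77 (2.52 to 3.02). *CTSL* was at 73.5 CPM (65.0 to 82.9) and 12.7 CPM (11.2 to 14.2), a log2 ratio of 2.54 (2.29 to 2.78). These were the 2 widest differences among the 7 genes. Neither gene had a UMI in the B cells, where 0 UMIs allow up to 5.005 CPM, and the same held for *EVA1C* and *PALMD*. With *APOD* at 11 UMIs, 4 of the 6 genes with enough UMIs were at least 2-fold lower in B cells than in T cells (13.0% of all genes).

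The markers divided these 2 genes further. *EGLN3* was at 128 CPM in *CCR4*+ cells (103 to 157), 128 in *CCR6*+ cells (109 to 150), 57.4 in *CXCR5*+ cells (42.7 to 75.5) and 22.6 in *FOXP3*+ cells (15.2 to 32.2). The intervals of the first 2 groups overlapped, and each lay above those of the other two. *CTSL* was highest in *CCR6*+ cells at 131 CPM (111 to 153), followed by 77.3 in *CCR4*+ cells (58.2 to 101), 54.0 in *CXCR5*+ cells (39.8 to 71.6) and 49.6 in *FOXP3*+ cells (38.4 to 63.1), the last 3 with overlapping intervals. Of the 6 genes with enough UMIs, 5 were at least 2-fold higher in *CCR4*+ cells (4.81% of all genes), 4 in *CCR6*+ cells (4.63%), 5 in *CXCR5*+ cells (3.35%) and 2, *CR1* and *CTSL*, in *FOXP3*+ cells (2.13%).

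Other listed genes of the same pathways differed less than *EGLN3* and *CTSL*, as did most of all genes tested. Of 9 genes of oxygen sensing, 7 had enough UMIs, and *EGLN3* alone was at least 2-fold higher in status-positive cells (2.68% of all genes). *EGLN2*, its constitutive relative, was at 159 and 143 CPM (log2 ratio 0.15, 0.02 to 0.28), and *HIF1A*, the target subunit, at 24.8 and 28.9 CPM (-0.22, -0.55 to 0.10). Of 14 genes that hypoxia is known to induce, 10 had enough UMIs, and their median log2 ratio was -0.14. None differed 2-fold either way. Of all genes 2.68% were at least 2-fold higher and 2.98% lower, so nothing is read from a count of 0 among 10. Of 13 cathepsins, 12 had enough UMIs and *CTSL* alone was at least 2-fold higher (2.68% of all genes), with a list median of 0.27. *CTSB*, also a lysosomal cysteine protease, was at 64.5 and 52.7 CPM. Of the cystatins, which inhibit such proteases, *CST7* was lower in status-positive cells at 111 against 313 CPM (-1.50, -1.65 to -1.36), and *CSTB* was at 179 and 160 CPM.

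*APOD* encodes a secreted lipocalin that carries small lipids, and it had its own pattern. It was found in 672 T cells (1177 UMIs, at most 16 in a cell). *APOD* was at 226 CPM in *CXCR5*+ cells (196 to 260), 44.4 in *FOXP3*+ cells (33.8 to 57.2), 40.8 in status-negative cells (38.2 to 43.5), 28.1 in *CCR4*+ cells (17.2 to 43.4) and 8.93 in *CCR6*+ cells (4.46 to 15.98). Only the *CXCR5*+ cells were above the status-negative cells beyond the intervals (log2 ratio 2.47, 2.24 to 2.69), and the *CCR6*+ cells were below them (-2.19, -3.20 to -1.35; 6.79% of all genes were at least 2-fold lower there). Of the 9 lipocalins and apolipoproteins listed, 8 were among the symbols, and *APOD* was the 1 member with 50 UMIs. After thinning, 22.2% of *CXCR5*+ cells and 1.31% of *CCR6*+ cells had an *APOD* UMI.

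*EVA1C*, a surface protein with lectin domains that binds SLIT ligands, was found in 740 T cells, and 85.7% of these had 1 UMI. *EVA1C* had overlapping intervals in status-positive and status-negative T cells (34.6 CPM, 28.8 to 41.2, and 33.0 CPM, 30.6 to 35.5; log2 ratio 0.07, -0.21 to 0.34). The single markers moved apart, however: *EVA1C* was at 77.3 CPM in *CCR4*+ cells (58.2 to 101) and at 6.02 CPM in *FOXP3*+ cells (2.60 to 11.9). The latter gave a log2 ratio of -2.46 (-3.67 to -1.47) against the status-negative cells (6.74% of all genes were at least 2-fold lower). None of 7 SLIT and ROBO genes reached 50 UMIs. *PALMD* encodes palmdelphin, a cytosolic relative of the paralemmins, and was found in only 28 T cells with 39 UMIs. Its interval reached from -0.40 to 1.97 around a log2 ratio of 0.86, so a difference by marker status was not detectable at this depth.

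T cells were clustered without the 7 genes, which gave 14 clusters, and clusters were named from marker lists. The lists and the clustering used *CCR4*, *CCR6*, *CXCR5* and *FOXP3*, so clusters and marker status are not independent. Status-positive cells made up 61.8% of cluster 9 (157 cells, Treg-like), 52.7% of cluster 8 (165 cells, unnamed, with the Th2 genes *GATA3*, *CCR4*, *PTGDR2* and *IL4R* raised but led by *LMNA*, *FUT7* and *CCR10*), 50.7% of cluster 5 (369 cells, Treg-like), 42.4% of cluster 3 (401 cells, Th17-like) and 35.7% of cluster 4 (401 cells, Tfh-like, whose leading genes included *CXCR5* but also *CCR4* and *ZBTB16*). They were 0.774% of cluster 0 (2195 cells, naïve-like) and 0.924% of cluster 1 (2056 cells, unnamed, with raised naïve genes).

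*CR1* was at 101 CPM in cluster 3 (88.4 to 116), 99.2 in cluster 4 (85.4 to 115), 66.3 in cluster 8 (49.2 to 87.4) and 62.2 in cluster 9 (44.0 to 85.4). *CR2* was at 86.0, 102, 63.7 and 44.2 CPM in the same clusters. In the naïve-like cluster 0 *CR1* was at 2.20 CPM (13 UMIs) and *CR2* at 0.169 CPM (1 UMI), and cluster 1 had 10 and 0 UMIs. The 2 receptors were therefore highest in the same 4 clusters but not confined to them. In cluster 7 (246 cells, Eomes Tr1-like, 20.7% status-positive) *CR1* was at 21.6 CPM (13.2 to 33.3). That cluster held 17 *CR1*+, 22 *CR2*+ and 24 *EGLN3*+ cells, against 29, 20 and 19 in cluster 9. In cluster 10 (148 cells, CD4 CTL-like) *CR1* was at 15.1 CPM (8.27 to 25.4). Both receptors were near 0 in the naïve-like cells. There 0 of 1822 thinned cells had a *CR2* UMI, which allows a share of up to 0.165% of cells with a UMI at 2200 UMIs per cell. Cluster 12, with 72 cells of a median of 987 UMIs, had *CR2* at 127 CPM from 10 UMIs in 5 cells and was left out of the order of clusters for its depth.

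The other genes peaked in different members of this group. *EGLN3* was highest in cluster 8 (160 CPM, 133 to 192, against 87.9 in cluster 3 and 70.6 in cluster 4), and *CTSL* in cluster 3 (112 CPM, 98.1 to 127) and cluster 9 (91.6 CPM, 69.2 to 119). *APOD* was highest in cluster 4 (224 CPM, 203 to 247) and next in the naïve-like cluster 0 (71.4 CPM, 64.7 to 78.5), while clusters 3 and 8 had 5.64 and 5.31 CPM. *EVA1C* was highest in cluster 8 (79.6 CPM, 60.7 to 102), but clusters 0 and 1 had 43.3 and 41.0 CPM and the CD4 CTL-like cluster 2 had 0.976 CPM. *PALMD* had 25 of its 39 UMIs in cluster 4. Clusters 3, 4, 8 and 9, put together after their values were seen, hold 15.2% of the T cells. They held 81.6% of *CR1*+, 88.9% of *CR2*+, 83.5% of *EGLN3*+ and 82.8% of *CTSL*+ cells, but 28.4% of *EVA1C*+ and 23.8% of *APOD*+ cells.

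**Figure D3:**
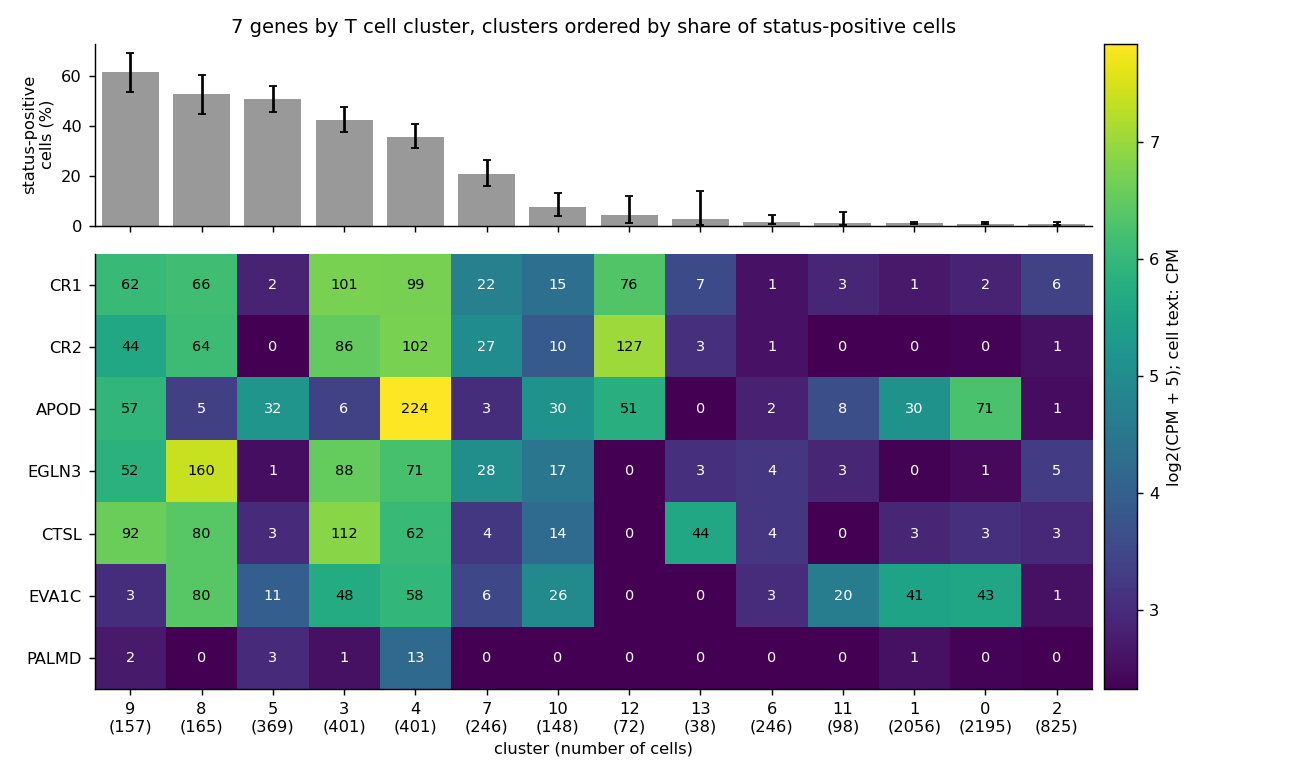
Share of status-positive cells with exact binomial 95% intervals (top) and level of the 7 genes (bottom; colour is log2 of CPM with 5 added, numbers are CPM) in the 14 T cell clusters, ordered by that share. *CR1*, *CR2*, *EGLN3* and *CTSL* are high in clusters 9, 8, 3 and 4 and low in the Treg-like cluster 5, and *APOD* and *EVA1C* are also present in clusters 0 and 1.

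The 2 Treg-like clusters differed. Among *FOXP3*+ cells of cluster 5 (178 cells) there were 3 *CR1*, 0 *CR2*, 1 *EGLN3* and 1 *CTSL* UMIs, and 0 UMIs allow up to 4.63 CPM there. Among *FOXP3*+ cells of cluster 9 (88 cells), *CR1* was at 62.1 CPM (39.3 to 93.1), *CR2* at 43.2 (24.7 to 70.1), *EGLN3* at 37.8 (20.7 to 63.4) and *CTSL* at 105 (74.8 to 144). *APOD* was present in both, at 26.2 CPM (15.3 to 42.01) and 45.9 CPM (26.7 to 73.4). The levels of *CR1*, *CR2*, *EGLN3* and *CTSL* in *FOXP3*+ cells as a whole thus covered a group nearly without them and a group with intervals apart from it. The 63 *FOXP3*+ cells of other clusters had *CR1* at 73.8 CPM (46.8 to 111) and *CTSL* at 83.5 CPM (54.5 to 122). The split by cluster was made after the values were seen, and cluster 5 also carried 5 of 6 naïve markers.

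Part of the cells with a UMI of 1 of the genes held another. Of the 7417 T cells, 2022 had at least 1 of the 7 genes and 649 had 2 or more. After thinning, *CR2* was found in 19.0% of *CR1*+ cells (39 of 205; interval 13.9 to 25.1%) and 2.31% of *CR1*-negative cells (1.96 to 2.70%). *EGLN3* was found in 17.6% and *CTSL* in 18.0% of *CR1*+ cells, against 2.397% and 2.90% of *CR1*-negative cells. In 8 of 21 pairs the intervals were apart whichever gene was taken first: all 6 pairs among *CR1*, *CR2*, *EGLN3* and *CTSL*, and *APOD* with *CR2* and with *CTSL*. No share over pairs of other genes was taken. The 7 genes were chosen with their expression in these cells known, so the count of pairs is a description. For *APOD* and *EGLN3* the intervals overlapped, since 3.03% of *APOD*+ and 2.84% of *APOD*-negative cells had *EGLN3*. In no pair were the intervals apart with the second gene the rarer in cells with the first. *PALMD*, in 16 thinned cells, was not found with *APOD* or *EGLN3*.

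Shared detection was also taken within groups of cells. Within status-positive cells 1 of 21 pairs was apart both ways (*CR1* and *CTSL*, 25% against 11.5%), and within status-negative cells 9 pairs were. In cluster 3 *CR2* was found in 15.4% of *CR1*+ (7.63 to 26.5%) and 15.7% of *CR1*-negative cells (11.9 to 20.03%). In cluster 4 the shares were 31.0% (20.5 to 43.1%) and 16.9% (12.9 to 21.5%), with overlapping intervals. Without thinning, *CR1* and *CR2* were both found in 147 of 7417 T cells and in 11 of 115 B cells.

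**Figure D4:**
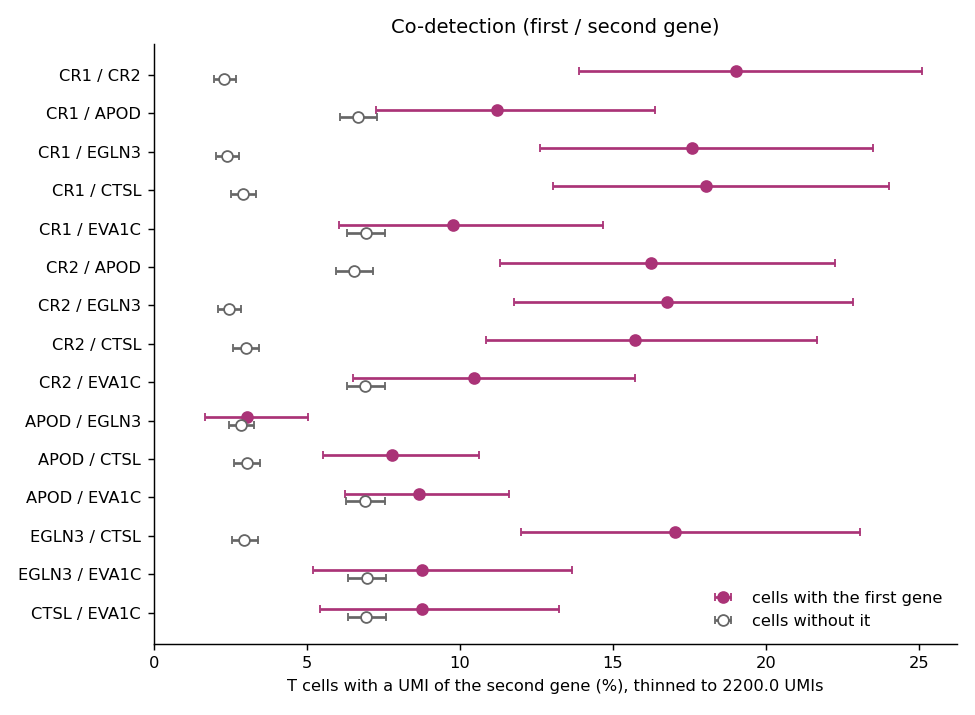
Share of T cells with a UMI of the second gene (x axis, percent, cells thinned to 2200 UMIs) among cells with the first gene (filled) and without it (open), with exact binomial 95% intervals, for the 15 pairs without *PALMD*. For *CR1* and *CR2* the shares are 19.0% and 2.31%, and for *APOD* and *EGLN3* 3.03% and 2.84%.

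T cells with a UMI of *CR1*, *CR2*, *EGLN3* or *CTSL* had higher medians of both antibody tags than T cells with none of the 7 genes. Thresholds of 146 CD4 and 505 CD8 tag UMIs divided the T cells into 5399 CD4hiCD8lo, 1669 CD4hiCD8hi, 314 CD4loCD8hi and 35 other cells. *CR1* was at 36.7 CPM in CD4hiCD8hi cells (32.5 to 41.3), 16.7 in CD4hiCD8lo cells (14.8 to 18.7) and 9.60 in CD4loCD8hi cells (4.79 to 17.2). For CD4hiCD8hi against CD4hiCD8lo cells the log2 ratio was 1.14 for *CR1* (0.89 to 1.38), 1.29 for *CR2* (1.03 to 1.55), 1.38 for *EGLN3* (1.13 to 1.63) and 1.41 for *CTSL* (1.17 to 1.66). These 4 of 6 genes were at least 2-fold higher, against 4.23% of all genes. The ratio of *APOD* had an interval that included 0 (0.04, -0.15 to 0.22), and *EVA1C* was lower (-0.35, -0.58 to -0.13). With the median of each tag as its threshold, *CR1* fell short of 2-fold (0.89, 0.59 to 1.202), the interval of *APOD* lay above 0 (0.30, 0.08 to 0.52) and that of *EVA1C* included 0 (-0.16, -0.41 to 0.08). In CD4loCD8hi cells 4 of 6 genes, *APOD*, *EGLN3*, *CTSL* and *EVA1C*, were at least 2-fold lower than in CD4hiCD8lo cells (7.04% of all genes).

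The tag difference was smaller among status-positive cells alone. There *CR1* was at 70.5 CPM in CD4hiCD8hi and 64.6 CPM in CD4hiCD8lo cells (log2 ratio 0.13, -0.25 to 0.50). The ratio was 0.52 for *CR2* (0.11 to 0.93), 0.31 for *EGLN3* (-0.04 to 0.65) and 0.44 for *CTSL* (0.09 to 0.80). None of the 6 genes with enough UMIs was at least 2-fold higher there, against 0.970% of all genes, and *PALMD* had 0 and 9 UMIs. Median CD4 tag counts were 585 UMIs in *CR1*+ cells, 627 in *CR2*+, 577 in *EGLN3*+ and 592 in *CTSL*+ cells, against 401 in T cells with none of the 7. Median CD8 tag counts were 494 UMIs in *CR1*+ cells, 527 in *CR2*+, 515 in *EGLN3*+ and 494.5 in *CTSL*+ cells, against 291 in *APOD*+ and *EVA1C*+ cells, 243 in *PALMD*+ cells and 290 in T cells with none of the 7. Within cluster 3 the CD8 medians were 640.5 UMIs with and 665 without *CR1*, within cluster 4 they were 367.5 and 428, and within cluster 9 246 and 255.5. Within cluster 8 they went the other way, at 527.5 and 493. The other genes differed from *CR1* in this. In clusters 3, 4, 8 and 9 the CD8 medians with *CR2* were 623.5, 432, 556 and 269, against 670, 411.5, 485.5 and 249 without. For *EGLN3* they were 666.5, 432, 491 and 338, against 662, 416, 547 and 247.5. For *CTSL* they were 666, 451, 519 and 266, against 662.5, 405, 501.5 and 253, each higher with *CTSL*. The CD4 medians with and without *CR1* were 683.5 and 623 in cluster 3, 595.5 and 567 in cluster 4, 554 and 549 in cluster 8, and 494 and 445.5 in cluster 9. They were also higher with *CR2*, *EGLN3* and *CTSL* in these clusters, except for *EGLN3* in cluster 3 (628 and 648). Gene UMIs per cell differed too, with medians of 3044 in cells with none of the 7 genes and 4862 in cells with 3 of them, and their part in the tag values was not tested.

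**Figure D5:**
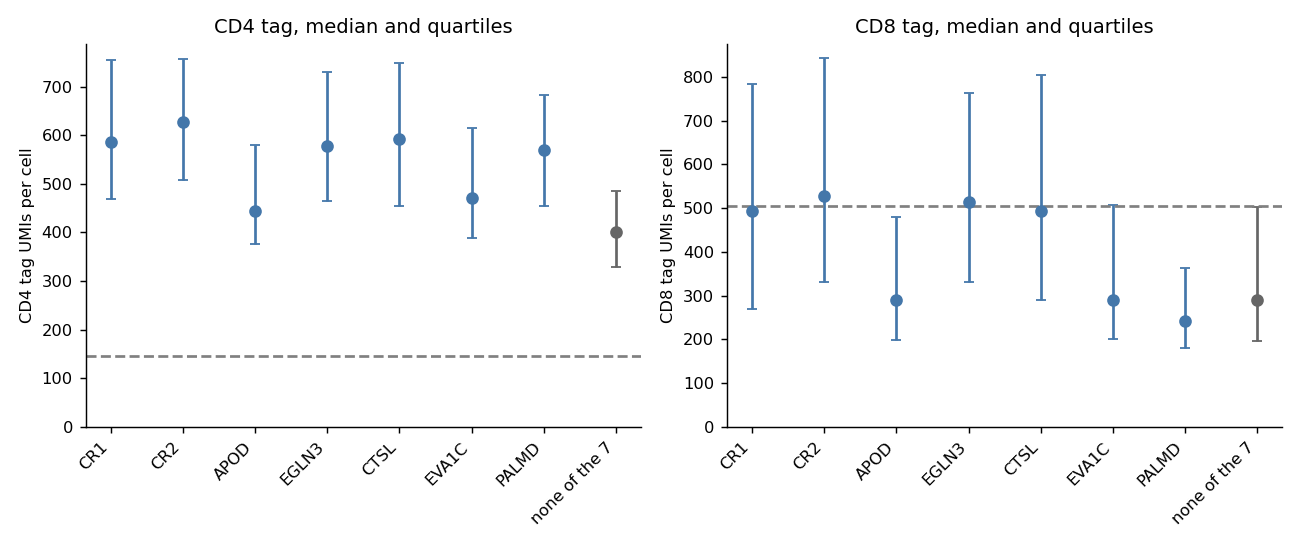
CD4 tag UMIs (left) and CD8 tag UMIs (right) per T cell with a UMI of each gene and with none of the 7; points are medians, whiskers quartiles, and the dashed lines the thresholds of 146 and 505 UMIs. The CD8 medians of *CR1*, *CR2*, *EGLN3* and *CTSL* lie between 494 and 527, above the 290 of cells with none.

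Over the 14 clusters, the gene most like *CR1* was *CR2* (Pearson r of log2(CPM + 5) 0.98, across clusters of 1 library and without a test), followed by *F5*, which encodes coagulation factor V (0.90), with *MAMDC2* (0.89) and *GPR183*, an oxysterol receptor that positions lymphocytes in follicles (0.87) also among the leading 5. *EGLN3* was most like *CCR4* (0.96) and *BIK* (0.95), and *CTSL* most like *TNFRSF4*, the costimulatory receptor OX40 (0.95), and *DAPP1* (0.91). *APOD* was most like the sialyltransferase gene *ST6GALNAC5* (0.88), *EVA1C* like *CALY* (0.87) and *PALMD* like the lipase gene *LPL* (0.85). Between *APOD* and *EGLN3* r was 0.03. The 14 clusters include cluster 12, which was left out of the order of clusters for its depth. *CR1* was at 75.9 CPM there from 6 UMIs, and r was not recomputed without it.

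In single cells the partners separated the genes in a similar way. *CHN1*, a Rac GTPase-activating protein, was at 24.6 CPM in *EGLN3*+ and 1.83 CPM in *EGLN3*-negative T cells, a 13.4-fold difference, and it was 16.4-fold higher in *CTSL*+ cells. Apart from each other, *CR1* and *CR2* had *MAMDC2* as the leading partner (8.14-fold and 8.79-fold) and then *ADAM19*. The leading partner of *APOD* was the interleukin 6 receptor gene *IL6R* (2.12-fold, 1.80 to 2.49), and that of *EVA1C* was *TNFSF10*, which encodes TRAIL (2.53-fold). Cells with a UMI of these genes had more UMIs in the median (3449 to 4902.5) than the 3044 of T cells with none of the 7, except *APOD*+ cells at 2958.5, and the ratios were not recomputed on thinned cells.

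*PALMD* had the widest ratio. *ZBTB16*, which encodes the transcription factor PLZF, was found in 15 of the 28 *PALMD*+ cells (53.6%, 33.9 to 72.5%) and in 72 of the other 7389 T cells (0.974%, 0.763 to 1.23%), and its CPM was 51.5-fold higher (32.7 to 78.9). In cluster 4 it was found in 10 of 17 *PALMD*+ and 12 of 384 other cells. Of the *PALMD*+ cells, 28.6% were among the 6% of kept cells with the highest doublet score, against 5.66% of T cells. Without those cells *ZBTB16* was found in 11 of 20 *PALMD*+ cells and was 59.2-fold higher.

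Markers of other cells varied among the positive cells. The 8 monocyte markers measured of 9 listed summed to 164 CPM in *CTSL*+, 88.3 in *EVA1C*+ and 38.5 in *EGLN3*+ cells, against 3.28 in *CR1*+, 2.20 in *CR2*+, 3.79 in *APOD*+ and 0 in *PALMD*+ cells and 3.29 in cells with none of the 7, and *LYZ* was at 0 in *CR1*+, *CR2*+ and *APOD*+ cells. Of the 403 such UMIs in T cells, 3 cells held 328, and these 3 cells carried 2 *CTSL*, 1 *EGLN3* and 1 *EVA1C* UMIs. *IGKC*, the immunoglobulin κ constant gene, was at 46.5 CPM in *CTSL*+ and 5.68 CPM in *CTSL*-negative T cells, while *MS4A1* was at 0 in the former. The part of *IGKC* in the *CTSL* values was not tested. Platelet and erythroid markers stayed at or below 1.10 CPM in each set of positive cells.

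Of 35 helper memory genes listed, 31 were among the symbols and 25, without the 4 markers themselves, had enough UMIs. At least 2-fold higher in status-positive cells were 8 of them, against 2.68% of all genes, none was 2-fold lower, against 2.98%, and their median log2 ratio was 0.63. They include *IL2RA* (38.1 against 3.91 CPM), *TNFRSF4* (52.3 against 8.54) and *ITGB1* (306 against 115), an integrin chain of memory T cells. The log2 ratios of *EGLN3*, *CTSL*, *CR1* and *CR2* lie between the 3.29 of *IL2RA* and the 1.41 of *ITGB1*. This list and the 4 markers name the same kinds of cells, so its count is a description as well.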

How the data were processed

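Reads were aligned to a *Macaca fascicularis* genome by the authors (Cell Ranger 3.1.0, STAR 2.5.1b). The deposited values are raw UMI counts of genes and tags in each barcode, not normalized and not yet filtered as the authors later did in Seurat 3.1.3. They form 1 pair of libraries from 1 animal. Barcodes were kept here if they had 200 to 4000 genes and no more than 20% of UMIs from 13 mitochondrial genes. CPM is the sum of a gene's UMIs over a group per 1000000 gene UMIs, with an exact Poisson interval. Ratios have the exact binomial interval of the UMI split, and shares have exact Clopper-Pearson intervals, all at 95%. A gene was tested if the groups compared held 50 or more of its UMIs in all, and called at 2-fold, with a group at 0 set to 3 UMIs; the genes that define the groups were left out. Depth sets the precision: shares were taken at 2200 UMIs drawn from each cell (thinning), and 754 of the 8830 cells were too shallow for it. Where a count was 0, the limit is 3 counts of the total.

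Tags were divided with 2-component Gaussian mixtures on log10(UMIs + 1), or at the median of each tag over the kept cells as an alternative. T cells were clustered with Seurat 5.3.0 in R 4.3.3 (log-normalization to 10000, 2000 variable genes, 20 components, 20 neighbours, resolution 0.8) without the 7 genes. A cluster took the name of the list with the highest mean log2 ratio among those with at least 3 markers at 1.5 times the median over clusters. It also needed a marker among its 10 leading genes and no other list with more there, except that the naïve list needed only the latter. Doublets were scored with Scrublet (scanpy 1.11.5, expected rate 6%), which called 0 cells and so did not work as a caller here, and none were taken out.

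The genes named are the 7 genes, for each of them the 5 genes with the highest Pearson r over clusters (pseudocount 5 CPM) and the 5 with the highest ratio in T cells with against without a UMI of it, with a UMI in at least 10% of the former, and genes of the lists of complement, oxygen sensing, hypoxia response, lipocalins, cathepsins, cystatins, SLIT and ROBO, helper memory and cell type markers. The 7 genes and the lists were chosen with earlier results of these data known. On simulated data with 200 changed genes, the right direction was found for 100% of them between status-positive and status-negative T cells and for 98.5% between B and T cells. The interval left out 0 for 93.5% and 73% of them. Summed counts were drawn there from a Poisson distribution without variation between cells, so the simulation covers counting error only. Other steps used scipy 1.17.1, numpy 2.4.6 and scikit-learn 1.9.0 under Python 3.11.15. Sequences of these genes were not used here, and some genes that the rule names are not reported here.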

Additional observations from a re-analysis of the deposited data

How the results depend on the processing

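No paired analysis was possible because the single animal gave 1 gene library and 1 tag library of the same cells. Of 109 values recomputed under alternatives, 94 stayed within the counting interval of the main value (for a count, within 1.5 times it), and no called value changed sign. With status taken from 2 UMIs of a marker (262 positive cells), the log2 ratio between status-positive and status-negative T cells was 1.82 for *CR1*, 1.54 for *CR2*, 2.20 for *EGLN3*, -0.59 for *EVA1C* and -0.997 for *PALMD*. In thinned cells it was 1.82 for *CR1* and 2.36 for *EGLN3*, and as a mean over cells 3.05 for *EGLN3*. The number of genes at least 2-fold higher was 463 with a minimum of 20 UMIs and 96 with 200 UMIs, against 261. Without B cells that held *CD3D*, *CD3G* or *TRAC*, the *CR1* log2 ratio of B to T cells was 0.94 against 1.48. Pairs of genes apart both ways numbered 15 without thinning and 1 within status-positive cells, against 8. With 2 UMIs required, cells with no more than 1 UMI of any marker counted as status-negative, which made 7155 such cells. Their part in these shifts, and other causes, were not tested. Keeping the cells with *CD3E* and *CD79A*, or leaving out 3 T cells with monocyte markers, were alternatives chosen after seeing the data, and neither moved a ratio out of its interval. The 115 B cells limit every value drawn from them, and 39 UMIs limit those of *PALMD*.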

Other observations

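The 1086 cells with both *CD3E* and *CD79A*, left out above, had a median of 3294 gene UMIs, and 879 of them held a single *CD79A* UMI. *CR1* was at 15.3 CPM in them (11.9 to 19.3) and *CR2* at 13.99 CPM (10.8 to 17.9), both below the T cells (log2 ratios -0.54 and -0.45). *EGLN3* was at 9.62 CPM and *CTSL* at 6.78 CPM, with log2 ratios of -1.11 (-1.59 to -0.67) and -1.65 (-2.22 to -1.13), while *APOD* (47.2 CPM) and *EVA1C* (27.6 CPM) had intervals of the ratio that included 0. *MS4A1* had 405 UMIs in 46 of them. The share of status-positive cells by number of the 7 genes found was 6.28% with none, 13.98% with 1, 35.7% with 2, 47.2% with 3, 60% with 4 and 57.1% of the 7 cells with 5. Their median gene UMIs rose from 3044 with none to 5467 with 4 and were 5031 with 5.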
